A study of Mus musculus with 8 samples.

Results

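Gene expression across the whole transcriptome was compared between Th17 cells and naive CD4+ T cells of C57BL/6 mice. The members were the libraries for which the deposited table holds raw read counts, 4 of the 8 libraries of the series: 2 of naive cells and 2 of Th17 cells, all wild type and from ribosome-depleted total RNA. Naive cells were not treated. Th17 cells had been cultured for 72 h with 0.25 µg/mL of anti-CD3ε, 1 µg/mL of anti-CD28, 0.1 ng/mL of TGF-β and 20 ng/mL of IL-6, as the labels of the samples give it, while the growth protocol gives TGF-β as a range and the treatment protocol also names a shorter culture. The series states independent biological replicates, without naming animals or pools. The naive cells were not kept in culture, so the effects of activation, of time in culture and of the polarizing cytokines cannot be told apart. The other 4 libraries, of a second Th17 culture with and without DDX5, were not analysed here.

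A naive CD4+ T cell is a small resting cell that recirculates between blood and lymph nodes and waits for its antigen. Once its T cell receptor and CD28 are engaged it enlarges, remodels its surface and its cytoskeleton, divides, and begins to secrete proteins through the endoplasmic reticulum, and TGF-β with IL-6 directs it to the interleukin-17 producing fate. Marker lists of T cell biology follow cytokines, glycolysis and the cell cycle. The families described here are mostly outside such lists: channels, guidance receptors, GTPase regulators, transcription factor families, trafficking proteins and enzymes of membrane lipids.

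Levels are given as CPM, the reads of a gene per 1000000 reads of the effective library size, in the order naive library 1, naive library 2, Th17 library 1, Th17 library 2. Levels of different genes are compared only as RPKM, which also divides by the exon length in kilobases. Log2 fold changes are Th17 over naive, with n = 2 libraries a group. Their standard error (SE) comes from edgeR's fit, which shares information across genes, and is not the spread of the libraries in a group. A gene was called, and is said to have risen or fallen, at a Benjamini-Hochberg adjusted p under 0.05 in edgeR's quasi-likelihood test across all 11989 tested genes. Every gene named below as risen or fallen also passed in each of the 4 fits that left out 1 library, unless stated. A gene with no read in a group has no measurable fold, and its change is given as a lower bound against 3 reads over that group, which equal 0.0908 CPM in naive and 0.0714 CPM in Th17 cells. With 1 to 3 reads in a group the ratio of CPM is given with its 95% counting interval. Fewer cells of a type and less RNA per cell cannot be told apart in such bulk samples.

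Reads on genes ran from 11768994 in Th17 library 2 to 26624436 in Th17 library 1, and genes with at least 1 read from 12499 to 15316, the most in the library with the fewest reads. Across tested genes log2(CPM + 0.5) correlated at r = 0.992 between the naive libraries, 0.965 between the Th17 libraries and 0.748 to 0.772 between groups, where genes are not independent replicates. The labels held against the markers. All 10 naive markers fell, Ccr7 without holding in every fit, with summed levels of 9941, 10770, 2376 and 2168 CPM. They include the T cell genes Cd3d, Cd3e, Cd3g and Cd4, which the Th17 libraries also held, Cd4 at 627 and 559 CPM. The fall of these genes is no check of a naive label. All 9 Th17 markers rose, from 42.9 and 42.9 to 4432 and 3960 CPM. Markers of other blood cells were read beside them. The 8 B cell markers summed to 2.6 and 3.24 CPM in the naive and 0.624 and 1.29 CPM in the Th17 libraries, with Ms4a1 at 0 reads in 3 libraries and 1 read in Th17 library 2. The 14 myeloid and dendritic markers summed to 28.7, 18.9, 12.6 and 13.1 CPM. Rises were called for 2 and falls for 6 of the 11 that were tested. Lyz2 (2.65 and 1.55 CPM in the naive and 0.139 and 0.152 CPM in the Th17 libraries), Itgam and Mpo were among the fallen, and Cd14, the endotoxin co-receptor (0.0531 and 0 CPM in the naive and 3.26 and 2.65 CPM in the Th17 libraries), and Zbtb46, a factor of dendritic cells (0.318 and 0.211 CPM in the naive and 3.09 and 4.09 CPM in the Th17 libraries), rose. Lyz2, Itgam and Zbtb46 held only with the gene filter of all 4 libraries. The 10 CD8 T and NK markers summed to 101 and 115 CPM against 55 and 53.3 CPM, and the 12 erythroid and platelet markers to between 6.94 and 19.1 CPM. The part of these cells in the differences below was not tested.

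Th17 library 2 stood apart. It held 846 genes at 1 CPM or more and at 10 times or more the CPM of every other library raised by 0.1, against 2 such genes in Th17 library 1 and 0 in both naive libraries, and they took 1.97% of its reads (95% exact interval 1.96 to 1.97). Among them were genes of the kidney tubule, including Kap with 13037 reads, Slc34a1 with 3664 and Umod with 1406, against at most 1 read of each in the other 3 libraries. A list of 20 kidney genes, written after these values were seen, summed to 2.12, 1.83, 1.91 and 2454 CPM, and all 20 had reads in Th17 library 2 while between 12 and 16 were at 0 reads in each of the others. Matrix genes such as Col1a1 (6207 reads against 35 in Th17 library 1), Sparc and Mmp2, and Kdr of blood vessels (1373 reads against 0), were high in the same library. Of the 846 genes 82 were tested. By edgeR 0 of these were called and 4 had an unadjusted p under 0.05, whereas DESeq2 called 67. Between the Th17 libraries 5.49% of tested genes lay apart by a log2 of 1 or more, 614 with library 2 above and 44 with library 1 above, against 1.51% between the naive libraries. The genes above in library 1 included cytokines of other helper fates: Il13 at 256.7 and 23.4 CPM, Il9 at 23.9 and 4.39 CPM and Il3 at 153.8 and 59 CPM in Th17 libraries 1 and 2, each with 0 naive reads and called by DESeq2 but not by edgeR. How these differences arose was not tested. Counts or medians without Th17 library 2 are given for some lists below, and lists given without them can move too. Without it the median log2 of potassium channels went from 0.15 to -0.12, and that of chloride and volume channels from 0.24 to -0.20.

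**Figure D1:**
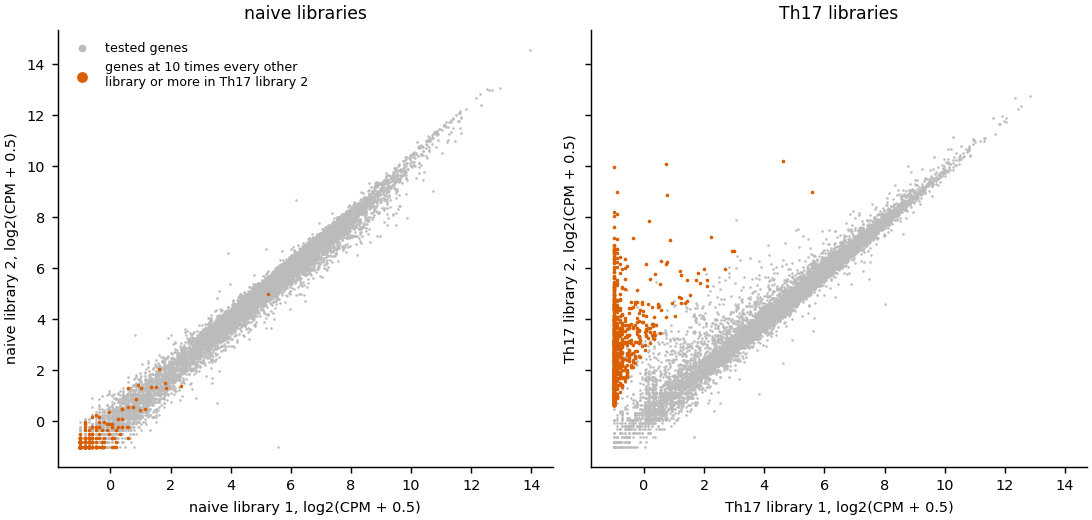
Levels of each gene in one library against the other of its group, as log2(CPM + 0.5), for the 2 naive libraries on the left and the 2 Th17 libraries on the right. Grey points are tested genes and orange points are the 846 genes, tested or not, at 10 times or more every other library in Th17 library 2: in the Th17 panel most stand at the left edge, which is 0 CPM in Th17 library 1.

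Calls were spread widely over the tested genes. Of the 11989 tested genes 4116 rose (34.3%) and 3684 fell (30.7%), and 65.1% were called in either direction. The balance of the directions rests on scaling: 52.8% of calls were rises with TMM scaling, against 66.4% when libraries were scaled by their totals alone, which moves the median of all genes by 0.299 on the log2 scale. The calls that held in all 5 fits were 3086 rises (25.7%) and 2753 falls (23%), 74.9% of the calls. Without Th17 library 2 there were 4098 rises (34.2%) and 3508 falls (29.3%). When low genes were filtered anew in each fit that left out a library, 2115 rises (17.6%) and 2237 falls (18.7%) held.

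Large rises were far more frequent than large falls. The sizes and medians below include the log2 that edgeR fitted to genes with no read in a group, whose fold is not measurable. Among calls held in all 5 fits, 2520 rises and 1954 falls reached a log2 of 1, 1383 rises and 314 falls a log2 of 3, and 788 rises and 81 falls a log2 of 5. Genes with no naive read and at least 1 CPM in both Th17 libraries numbered 261, of which 241 held. The reverse, no Th17 read and at least 1 CPM in both naive libraries, was seen for 11 genes. By Th17 library 1 alone the first count would be 285, and by Th17 library 2 alone 1014. The count of the reverse would be 24 by Th17 library 1 alone. Of 5 equal bins by mean RPKM, the lowest (0.0240 to 1.48) had a median log2 of 1.83 with 51.6% of its genes risen and 13.1% fallen, whereas the other bins had medians between -0.16 and 0.12. The median of that lowest bin was 1.51 without Th17 library 2.

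**Figure D2:**
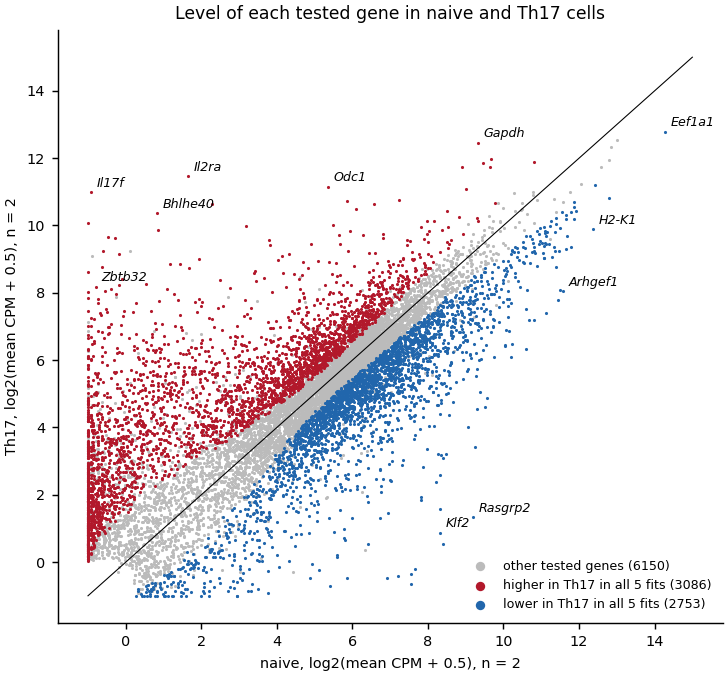
Mean level of each tested gene in Th17 cells (vertical) against naive cells (horizontal), both as log2(mean CPM + 0.5) with n = 2 libraries a group. Red and blue mark the 3086 genes that were higher and the 2753 that were lower in all 5 fits, grey the other tested genes, and the red points reach farther from the line of equal levels than the blue.

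Fewer genes made up the reads in both naive libraries than in either Th17 library. The 10 largest genes took 5.91% and 7.53% of naive reads against 5.14% and 5.07% of Th17 reads, and 694 and 567 genes against 943 and 997 genes made up 50% of the reads. The difference in the share of the 10 largest was -1.62 percentage points, and -0.81 without naive library 2, and 2 libraries against 2 allow no two-sided exact permutation p under 0.333. The largest loss in CPM was that of Eef1a1, the elongation factor that brings tRNA to the ribosome, from 16027 and 23952 to 7311 and 6845 CPM (log2 -1.50 ± 0.29). Also among the 10 largest losses were Tpt1, a translationally controlled protein (log2 -1.98 ± 0.25), H2-K1, a class I antigen-presenting molecule (-2.47 ± 0.22), and the ribosomal protein gene Rpsa (-1.22 ± 0.25). Coro1a, a coronin that binds actin in leukocytes, fell from 3202 and 3848 to 678 and 626 CPM, and the small GTPase regulators Arhgef1 (from 3192 and 2904 to 279 and 249 CPM) and Arhgap45 (from 3228 and 2503 to 261 and 284 CPM) were there too. Actb and Rplp0 were also there, both at log2 -0.86, without holding in every fit. The largest gains in CPM were the glycolytic Gapdh, from 566 and 718 to 5976 and 5269 CPM, then Pkm, Ldha, the intermediate filament gene Vim and the interleukin-2 receptor chain Il2ra, from 2.44 and 2.82 to 3225 and 2455 CPM. Odc1, the rate-limiting enzyme of polyamine synthesis, rose from 42.3 and 39.1 to 2539.9 and 2000.3 CPM (log2 5.80 ± 0.25). Per length, Gapdh went from a mean of 155 to 1360.3 RPKM and Il17f from 0.0131 to 1007 RPKM. The edgeR adjusted p of the genes named here as risen or fallen lay from 1.14e-07 to 0.00251.

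The unfolded protein response was among the lists of families and functions with the largest shares of risen members. It came first of all 63 with all 4 libraries, but not without Th17 library 2, where the matrix list had 21 rises among 31, nor by the rises held in all 5 fits. This response is the set of chaperones, oxidoreductases and sensors that the endoplasmic reticulum (ER) makes when its load of secreted protein grows, and 3 sensors, IRE1, PERK and ATF6, switch it on. All 37 of its listed genes were tested: 23 rose and 4 fell, with a median log2 of 0.67 against 0.06 for all tested genes, and 21 rose and 4 fell without Th17 library 2. Chac1, which breaks down glutathione downstream of PERK, had no naive read and 10.8 and 6.82 CPM, at least 97.2-fold higher. Ero1l, the oxidase that feeds disulfide bonds into the ER, rose from 32.8 and 34 to 556 and 427 CPM (log2 3.88 ± 0.20). Of the chaperones, Hspa5 (BiP) rose from 336 and 394 to 1317 and 1455 CPM (1.92 ± 0.19), Hsp90b1 from 270.1 and 305 to 1106 and 1151 CPM (1.97 ± 0.18) and the disulfide isomerase Pdia6 from 94.7 and 112 to 414 and 314 CPM (1.82 ± 0.19). Calr, the lectin chaperone with the highest RPKM of the list among called members, went from 466 and 506 to 894 and 832 CPM (0.83 ± 0.17). The groups did not overlap for any of these, as was so for 44.1% of tested genes with Th17 above naive and 40.8% with Th17 below. Of the sensors, Atf6 rose (2.64 ± 0.20) and Eif2ak3 (PERK) rose (1.22 ± 0.17), Ern1 (IRE1) was called without holding in every fit, and Atf6b fell from 116 and 122 to 61.8 and 61.3 CPM (-0.95 ± 0.15). Dnajc3, a co-chaperone that restrains PERK, fell from 208 and 206 to 98.8 and 90.6 CPM (-1.13 ± 0.15), and Ero1lb, the second ER oxidase, fell as well (-0.79 ± 0.18). The edgeR adjusted p ranged from 7.48e-07 to 0.00431 among the genes that held in every fit and was 0.0399 for Ern1. Hspa5, Hsp90b1, Pdia6, Atf6, Eif2ak3 and Ern1 were chosen for naming after their values were seen.

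Promoters of this list carry a known element, and its sequence is shown because members with it went both ways. The ER stress response element reads CCAAT, 9 bases of any kind, then CCACG. These letters were searched on both strands in RefSeq promoters of GRCm38.p6 that run from 250 bases before to 50 bases after each gene's start. Of the 37 genes 32 matched a promoter, and 10 of those 32 (31.25%) held the element, against 18 of 9687 tested genes with a promoter (0.186%) and 35 of all 27025 promoters (0.130%). This motif was settled on after other motifs had been tried on other lists, and the list was built from genes already known for this response, so the match is a description. The sites of 6 of the 10 genes are shown. In them, 5′ to 3′ on the strand named, capitals mark the fixed bases and lower case the spacer, and the site's distance is counted to the annotated start.
Hsp90b1, chr10:86705638-86705656, minus strand: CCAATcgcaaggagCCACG
Hsp90b1, chr10:86705533-86705551, plus strand: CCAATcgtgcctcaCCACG
Hspa5, chr2:34772025-34772043, plus strand: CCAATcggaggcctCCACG
Pdia6, chr12:17266491-17266509, plus strand: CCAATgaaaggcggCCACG
Calr, chr8:84847075-84847093, plus strand: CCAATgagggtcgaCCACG
Dnajc3, chr14:118937827-118937845, plus strand: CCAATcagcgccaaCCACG
Syvn1, chr19:6046532-6046550, plus strand: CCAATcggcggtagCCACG

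Hsp90b1 held 2 sites, 212 and 107 bases before its start, on opposite strands, and the site of Hspa5 lay 65 bases before its start. All 7 sites are upstream of the transcribed gene. Of the 10 genes with the element 7 rose, 2 fell and 1 was not called: Hsp90b1, Hspa5, Pdia6, Calr, Canx, Creld2 and Derl3 rose, Dnajc3 and Ero1lb fell, and Syvn1, the ubiquitin ligase of ER-associated degradation, stayed at log2 0.06 ± 0.15 with an edgeR adjusted p of 0.754. Of the 22 genes without it 13 rose, 2 fell and 7 were not called. Genes without a match in this window included Sdf2l1 (log2 2.58 ± 0.16, edgeR adjusted p 2.23e-06) and Xbp1 (1.81 ± 0.16, edgeR adjusted p 1.64e-05), both among the risen.

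Beside the chaperones, the machinery that moves proteins into and out of the ER had few falls. Of 61 tested genes of ER translocation and COP vesicles 24 rose and 5 fell (22 and 3 without Th17 library 2), with a median log2 of 0.32. Kdelr3, a receptor that returns escaped ER proteins, had no naive read and 7.53 and 5.91 CPM, at least 74-fold higher, and its relative Kdelr2 rose from 27.4 and 37.7 to 100.2 and 96.6 CPM (1.60 ± 0.19). Ssr3, a subunit of the translocon-associated complex, rose from 153 and 194 to 384 and 317 CPM. Sec31b, the minor form of an outer COPII coat subunit, fell from 14.54 and 9.51 to 1.01 and 0.985 CPM (-3.59 ± 0.38). The list of nuclear pore proteins and transport receptors had 26 rises and 7 falls among 55 tested (23 and 7 without Th17 library 2). Kpna2, an importin α, rose from 26 and 29.1 to 199 and 144 CPM (2.64 ± 0.20), Ipo7 from 105 and 104 to 289 and 286 CPM (1.46 ± 0.15) and the GTPase Ran that drives transport from 189.7 and 254 to 577 and 490.0 CPM (1.27 ± 0.20). The pore components Nup210 (from 899.9 and 746 to 276 and 225 CPM) and Nup153 (from 399 and 325 to 145 and 119 CPM) fell. Mitochondrial import and shape genes showed a similar balance, with 24 rises and 6 falls among 49 and a median of 0.44: Chchd6 of the cristae junction complex rose from 1.43 and 1.27 to 11.5 and 12.8 CPM and Chchd4, the import oxidoreductase of the intermembrane space, from 10.3 and 13.4 to 45.9 and 34 CPM, while Tomm34 fell from 118 and 137 to 49.4 and 44.2 CPM. In each of these 3 lists the share of fallen members, between 8.20% and 12.7%, was under the 30.7% of all tested genes, while the share of risen members of the ER translocation list, 39.3%, was near the 34.3% of all. By edgeR, adjusted p of the genes named ran from 6.76e-06 to 0.00136.

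To find families that no list had picked, all genes were grouped by name stem, the letters before the first digit, and the 145 stems with at least 10 tested genes were ranked by median log2 fold change. Stems are groups of names, and a few, such as P, S and H, join unrelated genes. The highest medians were those of Il (3.54), Sema (3.43), Kif (2.35) and Tspan (2.02), followed by P, Myo (1.73), S, Dusp (1.55), Dock (1.35) and Gpr (1.32). The lowest were Ifi (-3.0), Ly (-1.44), Rps (-1.37), Irf (-1.36) and Rpl (-1.11), then H, Parp (-0.77), Klhl (-0.71), Phf (-0.62) and Zbtb (-0.60). Library totals alone and DESeq2's size factors kept the same 10 stems at each end. Without Th17 library 2, 9 of the 10 remained at each end, the median of Myo was 1.03, and Dock left the top with a median of -0.06.

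**Figure D3:**
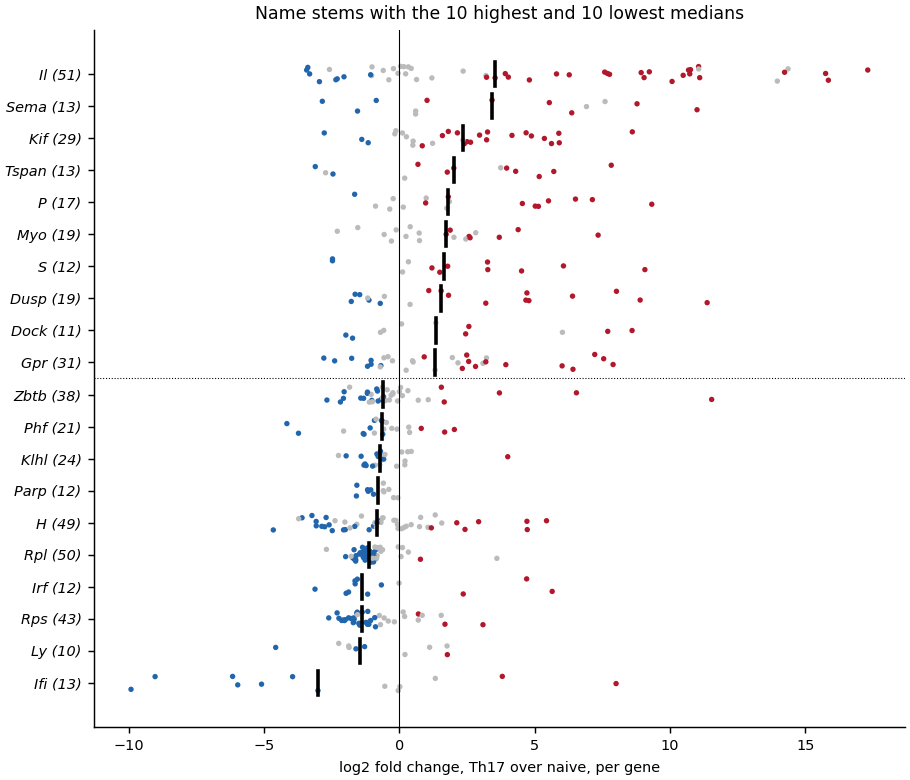
Log2 fold change of every tested gene of the 10 name stems with the highest and the 10 with the lowest medians, with the number of tested genes in brackets. Red and blue points were called higher and lower in all 5 fits, grey points were not, and black bars are medians, from 3.54 for Il to -3.0 for Ifi.

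A high stem median did not mean that a whole family rose. In the Kif stem, the kinesin motors that walk along microtubules, 21 of 29 genes rose and 3 fell, and the fallen Kif21b, which pauses microtubule growth, was the called member of highest RPKM: from 1144 and 746 to 149 and 128 CPM (log2 -2.77 ± 0.24). In the Sema stem 8 of 13 rose and 3 fell. Sema4d, the semaphorin first known on T cells, was its called member of highest RPKM and fell from 447 and 394 to 254 and 212 CPM (-0.85 ± 0.17), whereas Sema6b had no naive read and 12.3 and 15 CPM, at least 150.7-fold higher. Among the dual-specificity phosphatases, which switch off MAP kinases, 11 of 19 rose and 5 fell: Dusp4 rose from 2.28 and 1.2 to 505 and 428 CPM (8.03 ± 0.31) and Dusp14 from no read to 16.7 and 18.8 CPM, at least 195-fold higher. In the Dock stem of Rac and Cdc42 activators, Dock2, the main one of lymphocytes, fell from 930.2 and 703 to 263 and 231.2 CPM (-1.72 ± 0.20), and Dock3 went from no read to 3.09 and 2.05 CPM, at least 28.3-fold higher. Gpr65, a proton-sensing receptor, rose from 53.5 and 52.3 to 328 and 269 CPM (2.49 ± 0.17). At the other end, 8 of 13 interferon-inducible Ifi genes fell, Ifi47 from 361 and 385 to 50.6 and 42.4 CPM and Ifi208 from 173 and 199 CPM to 8 and 0 reads. Of the ribosomal protein stems, 31 of 43 Rps and 43 of 50 Rpl genes fell, such as Rps27 (from 2189 and 3138 to 348 and 529 CPM), while 3 and 1 rose, and their reads can be split with processed pseudogenes of near-identical sequence. Of the plant homeodomain stem Phf, Phf1, a partner of the Polycomb repressive complex, fell from 288 and 281 to 13.8 and 18.4 CPM (-4.15 ± 0.20). For the calls named here edgeR gave adjusted p from 4.05e-07 to 0.00245.

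The 63 lists of families and functions held 960 members that rose and 806 that fell, each gene counted once over all lists. No share of tested members was taken for these totals. They are therefore not read against the 34.3% of rises and 30.7% of falls of all tested genes. Of the lists 38 had more than the 34.3% of rises of all tested genes. Library totals alone turned 13 of the 20 lists with more falls than rises to more rises. Shares of 62 lists are given in the plot of members called per list. A list of mostly low genes has more rises by the pattern of levels given above, and its share is read against that.

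**Figure D4:**
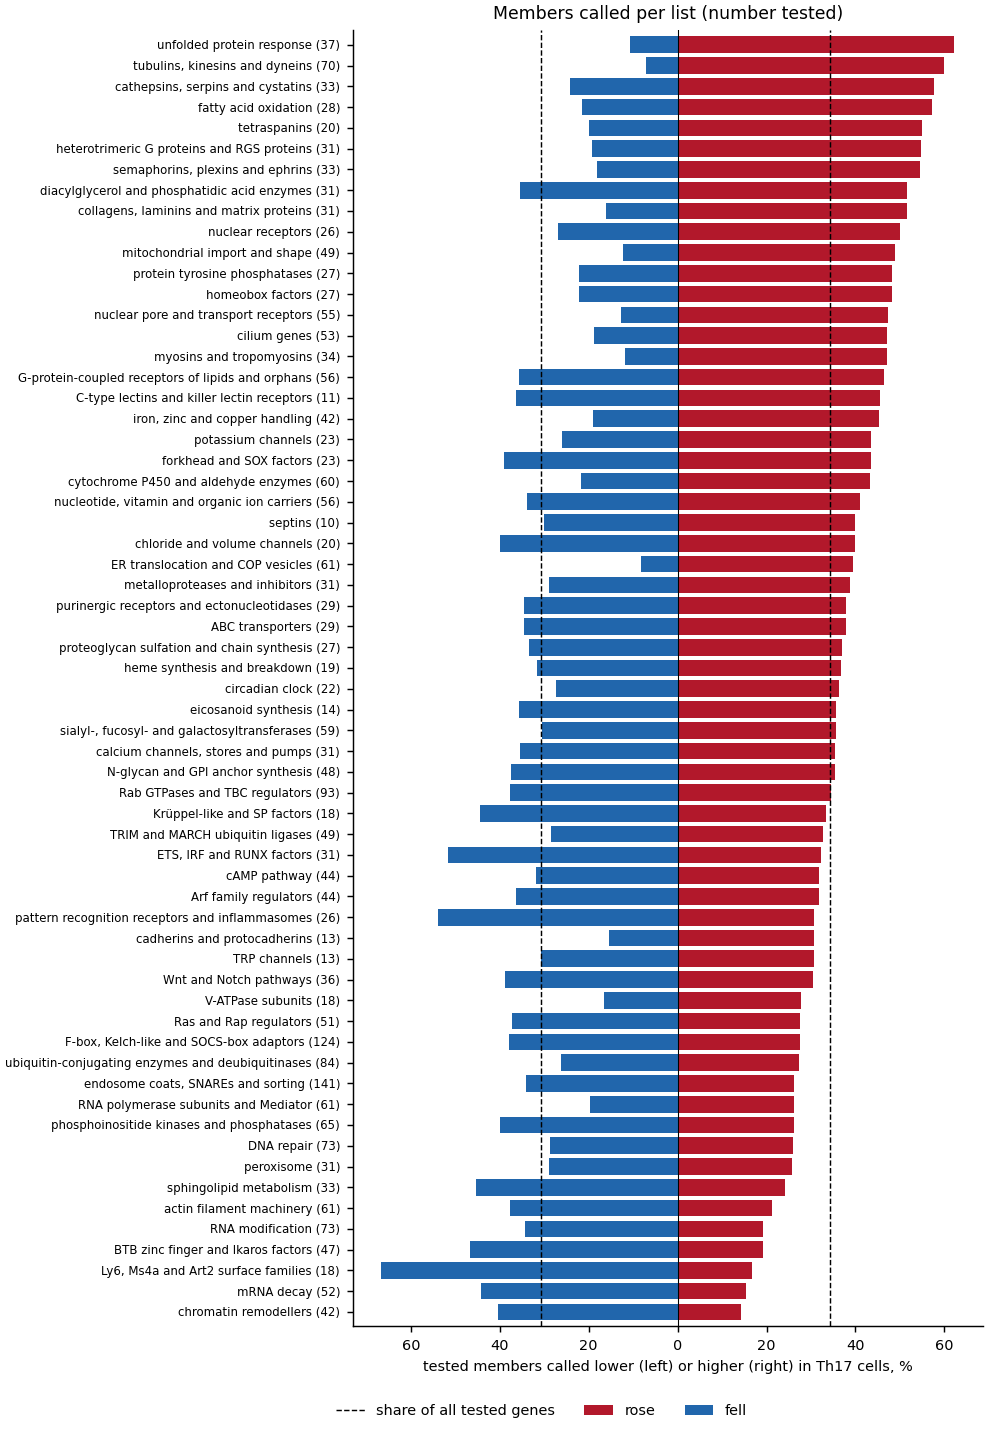
Share of tested members called higher (red, right) or lower (blue, left) in Th17 cells in each of 62 of the lists, with the number tested in brackets, ordered by the share that rose. Dashed lines mark the shares over all tested genes, 34.3% and 30.7%: the unfolded protein response and the tubulin, kinesin and dynein list have the largest shares of rises with all 4 libraries, chromatin remodellers and mRNA decay the smallest.

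Ion channels had calls in both directions, as had all tested genes (34.3% risen and 30.7% fallen). In the potassium, calcium, TRP and chloride lists the shares risen ran from 30.8% to 43.5%. The shares fallen ran from 26.1% to 40%. Potassium channels, which set the membrane voltage of T cells, had 10 rises and 6 falls among 23 tested. Kcnk10, a leak channel opened by fatty acids and stretch, had no naive read and 28.9 and 19.3 CPM, at least 266-fold higher. Kcnh2 fell from 30.5 and 25.9 to 1.32 and 1.29 CPM (log2 -4.43 ± 0.24), and Kcnh3 fell from 9.44 and 8.24 CPM to 1 read in each Th17 library, 188-fold (interval 51.5 to 1556) lower. Calcium channels, stores and pumps had 11 rises and 11 falls among 31. Orai2, a pore of store-operated calcium entry, fell from 319 and 281 to 25.8 and 24 CPM (-3.59 ± 0.17), as did its store regulator Saraf from 607 and 794 to 144 and 149 CPM (-2.25 ± 0.19) and Cacnb1, a β subunit of voltage-gated channels, from 30.6 and 35.9 to 2.67 and 2.96 CPM. Cacna1s, known as the voltage sensor of skeletal muscle, went from no read to 5.34 and 5.83 CPM, at least 61.6-fold higher. Of the TRP cation channels, 4 of 13 rose and 4 fell: Trpm6, a magnesium channel, was 266-fold (interval 73.3 to 2199) higher at 18.7 and 10.46 CPM, and Trpm7, its ubiquitous relative, fell from 189.8 and 143 to 81.6 and 89.9 CPM (-0.96 ± 0.18). Of chloride and volume channels 8 of 20 rose and 8 fell, led by Clcn5 (from 6.84 and 4.22 to 80.3 and 68.5 CPM) and Clic4 (from 46.3 and 41.3 to 414 and 346 CPM) on the one side and Ttyh3 (from 459 and 399 to 32.7 and 48.2 CPM) on the other. Cadherins had 4 rises and 2 falls of 13 tested, 4 and 5 without Th17 library 2, with the large rise of Cdh17, 1560.2-fold (interval 432 to 12888) to 99.6 and 83.2 CPM. Adjusted p in edgeR spanned 1.14e-07 to 0.00144.

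Receptors for nucleotides and lipids also had calls in both directions, where 34.3% of all tested genes rose and 30.7% fell. The shares were 37.9% and 34.5% for the purinergic list and 46.4% and 35.7% for lipid and orphan receptors. Of 29 genes of purinergic receptors, ectonucleotidases and nucleoside carriers 11 rose and 10 fell. Adora2b, the low-affinity adenosine receptor, had no naive read and 25.3 and 26 CPM, at least 282-fold higher. Slc28a2, a concentrating nucleoside carrier, fell from 262 and 251 to 27.5 and 26.3 CPM (log2 -3.25 ± 0.16), and its neighbour Slc28a2b fell from 200.3 and 173 to 0.104 and 0.455 CPM, where near-identical sequence makes the split of reads between them uncertain. Among 56 lipid and orphan G-protein-coupled receptors 26 rose and 20 fell, with a median of 0.70 (0.41 without Th17 library 2). Cysltr1, the leukotriene D4 receptor, had no naive read and 43.6 and 31.3 CPM, at least 412-fold higher. Of the sphingosine-1-phosphate receptors, S1pr3 rose 601-fold (interval 108 to 23762) to 15.3 and 24.4 CPM, while S1pr1, through which naive cells leave lymph nodes, fell from 704 and 659 to 128 and 119 CPM (-2.47 ± 0.17). Adgre5 (CD97), an adhesion receptor of leukocytes, fell from 699 and 653 to 67.9 and 62.6 CPM (-3.37 ± 0.18). Downstream, heterotrimeric G proteins and RGS proteins, which shorten their signal, had 17 rises and 6 falls among 31 with a median of 0.99. Rgs16 rose from 0.531 and 0.775 to 79.4 and 78.7 CPM (6.94 ± 0.23) and Rgs9 from no read to 9.19 and 10.2 CPM, at least 107-fold higher, while Rgs14 (from 237 and 261 to 29.5 and 24.8 CPM) and Rgs10 (from 173 and 218 to 35.3 and 38 CPM) fell. The cAMP pathway had 14 rises and 14 falls among 44. Adcy7, a main adenylyl cyclase of lymphocytes, fell from 502 and 418 to 128 and 101 CPM (-2.0 ± 0.19), Rapgef4 (EPAC2), a cAMP sensor, fell from 66.3 and 54.5 to 4.3 and 3.56 CPM, and the phosphodiesterase Pde10a went from no read to 2.71 and 3.18 CPM, at least 32.4-fold higher. These calls had adjusted p from 1.14e-07 to 2.00e-04 in edgeR.

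Guidance receptors, tetraspanins and matrix genes had larger shares of rises than the transcriptome, and shares near the 51.6% of its lowest bin by mean RPKM. Semaphorins, plexins, ephrins and netrins, families first described in axon growth, had 18 rises and 6 falls among 33 tested with a median of 1.88, and 17 and 9 with a median of 1.21 without Th17 library 2. Efna5 (6.59 and 2.88 CPM, at least 52.2-fold higher) and its receptor class member Epha2 (3.61 and 3.41 CPM, at least 38.7-fold higher) both started from no naive read. Ephb6, a kinase-dead ephrin receptor of T cells, fell from 104 and 101 to 11.5 and 10.8 CPM (log2 -3.20 ± 0.16). Of 20 tetraspanins, which organize membrane receptors into domains, 11 rose and 4 fell: Tspan2 rose from 0.584 and 0.141 to 14.6 and 13.2 CPM (5.17 ± 0.54) and Cd82 from 208 and 272 to 437 and 370.4 CPM (held only with the gene filter of all 4 libraries), while Tspan32 (from 329 and 332 to 39.9 and 37.1 CPM), Tspan14 (from 179.6 and 198 to 33.2 and 36 CPM) and Cd37 (from 361 and 369 to 89.3 and 72.4 CPM) fell. Collagens, laminins and other matrix proteins had 16 rises and 5 falls among 31. Lum, a leucine-rich proteoglycan of collagen fibrils, went from no read to 257 and 203 CPM, at least 2533-fold higher, and Col5a3 to 31 and 33.3 CPM, at least 354-fold higher. These levels were alike in both Th17 libraries, unlike those of Col1a1 above. The list as a whole summed to 1555 CPM in Th17 library 1 and 4316 CPM in Th17 library 2. It had no fewer rises without Th17 library 2, but its median log2 went from 4.53 to 3.03. Srgn, the proteoglycan of secretory granules and the called member of highest RPKM, rose from 159.6 and 208 to 883 and 617 CPM (2.03 ± 0.23). Timp1, which inhibits matrix metalloproteases, rose 2433-fold (interval 832 to 11802) to 212 and 240.5 CPM. Mmp10 rose from no read to 49.5 and 33.3 CPM, at least 456-fold higher. Their list had 12 rises and 9 falls among 31, but more falls than rises without Th17 library 2. Across these genes the adjusted p of edgeR lay from 1.14e-07 to 0.00744.

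In the cathepsin, serpin and cystatin list 19 rose and 8 fell of 33 tested. Serpinf1 (PEDF), a secreted serpin, was 5148-fold (interval 924 to 203360) higher at 162 and 143 CPM. Serpine2, of the same family, rose from 0.265 and 0.211 to 138 and 114 CPM (log2 8.99 ± 0.28). Ctsw, a cathepsin of cytotoxic lymphocytes, fell from 105 and 107 to 1.46 and 2.5 CPM (-5.82 ± 0.25), and Ctss, which trims the class II invariant chain, fell from 244 and 311 to 57.2 and 42.7 CPM (-2.47 ± 0.21). Of the Ly6, Ms4a and Art2 surface families 3 rose and 12 fell of 18, with a median of -2.25. Art2b, a surface enzyme that attaches ADP-ribose to proteins of resting T cells, fell from 112 and 127 to 0.139 and 0.303 CPM (-9.23 ± 0.29), and Ly6c1 from 147 and 168 to 3.95 and 9.93 CPM (-4.56 ± 0.52), while Ly6a (Sca-1) rose from 255 and 251 to 900.4 and 835 CPM (1.78 ± 0.17). Reads of Ly6 and of Art2 genes can be shared with close paralogs. Of 11 lectin receptors 5 rose and 4 fell: Klrc1 (NKG2A) rose from 0.265 and 0.141 to 29.6 and 35 CPM (7.22 ± 0.32) and Clec2d, a ligand of NK receptors, fell from 206 and 186 to 23.8 and 24.7 CPM (-3.01 ± 0.16). By edgeR, adjusted p of the genes named ran from 1.14e-07 to 0.00321.

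Inside the cell, regulators of small GTPases were called in both directions, as were all tested genes (34.3% risen and 30.7% fallen). The shares risen and fallen were 27.5% and 37.3% for Ras and Rap regulators. They were 31.8% and 36.4% for Arf regulators and 34.4% and 37.6% for Rab GTPases and their regulators. Arhgef18 fell from 720.0 and 495 to 9.19 and 11.1 CPM (log2 -5.91 ± 0.26), Arhgap4 from 694 and 639 to 32.5 and 33 CPM (-4.35 ± 0.18) and Arhgdib, an inhibitor that holds GTPases in the cytosol of blood cells, from 1162 and 1379.8 to 388 and 326 CPM (-1.83 ± 0.20), while Arhgdig of the same small family went from no read to 29.2 and 22.2 CPM, at least 283-fold higher. Ras and Rap regulators had 14 rises and 19 falls among 51. Rasgrp2, the calcium-driven activator of Rap1, fell from 602 and 577 to 1.63 and 2.42 CPM (-8.23 ± 0.26) and the GTPase-activating proteins Rasa3 (from 749.9 and 750.0 to 29.7 and 27.4 CPM) and Rasal3 (from 1107 and 1036 to 124 and 115 CPM) fell with it. Spred3, an inhibitor of Ras activation, rose from 0.584 and 0.775 to 17 and 16.4 CPM (4.62 ± 0.33). The median of this list, -0.05, turned to 0.26 with library totals alone. Arf regulators split with 14 rises and 16 falls among 44, Arl4c falling from 716 and 676 to 92.7 and 65.3 CPM and Arfgef3 rising 367-fold (interval 125 to 1782) to 34.9 and 29.9 CPM. Rab GTPases and their TBC and DENN regulators had 32 rises and 35 falls among 93: Rab37 of secretory granules fell from 124 and 122 to 2.25 and 2.2 CPM (-5.78 ± 0.19) and Rab34 rose 366-fold (interval 65.5 to 14505) to 10.6 and 12.2 CPM. For the calls named here edgeR gave adjusted p from 1.14e-07 to 5.85e-05.

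Enzymes that make or remove lipid signals were called both ways, where 34.3% of all tested genes rose and 30.7% fell. The shares were 26.2% and 40% for the phosphoinositide list and 51.6% and 35.5% for the diacylglycerol list. Phosphoinositide kinases, phosphatases and phospholipases had 17 rises and 26 falls among 65 tested. The median was -0.27, and 0.04 with library totals alone. Pik3cd, the PI3-kinase catalytic subunit of lymphocytes, fell from 1281 and 1049 to 220.1 and 192 CPM (log2 -2.50 ± 0.20), Pik3ip1, an inhibitor of PI3-kinase, from 337 and 306 to 4.51 and 6.52 CPM (-5.90 ± 0.23), and Pik3r5 from 354 and 297 to 41 and 38.8 CPM (-3.03 ± 0.17). The second adaptor of the same PI3-kinase class, Pik3r6, rose 171-fold (interval 47.1 to 1417) to 10.7 and 9.62 CPM. Diacylglycerol, the signal downstream of the T cell receptor, is removed by diacylglycerol kinases, of which these fell: Dgka from 2402 and 2059 to 175 and 159.8 CPM (-3.74 ± 0.21), Dgkz from 797 and 802 to 166 and 166 CPM (-2.27 ± 0.17) and Dgkd from 569 and 536 to 158 and 139 CPM (-1.89 ± 0.17). Dgkk went from no read to 7.15 and 5.76 CPM, at least 71.1-fold higher. The whole list of diacylglycerol and phosphatidic acid enzymes had 16 rises and 11 falls among 31. Protein tyrosine phosphatases had 13 rises and 6 falls among 27: Ptprc (CD45) fell from 2359.9 and 1985 to 1112 and 880.2 CPM (-1.12 ± 0.21), while Ptpn5 (from 0.478 and 0.211 to 81 and 64.9 CPM), Ptpn14 (from 1.06 and 0.704 to 53.8 and 67.1 CPM) and Ptprj (from 1.49 and 1.2 to 80.7 and 84.1 CPM) rose. Of Wnt and Notch genes 11 rose and 14 fell of 36. The Notch regulators Dtx1 (from 348 and 294 to 3.05 and 1.89 CPM) and Lfng (from 361 and 351 to 32.9 and 29.9 CPM) and Axin2, a target of Wnt signals, (from 57.6 and 58.9 to 6.07 and 5.15 CPM) fell, and the receptor Fzd7 rose from 0.159 and 0.0704 to 14.2 and 15.5 CPM. Of pattern recognition and inflammasome genes 8 rose and 14 fell of 26. Nlrc5, the activator of class I genes, fell from 589 and 385 to 104 and 102 CPM, Tlr1 from 124 and 99.8 to 4.75 and 5.3 CPM and Nod1 from 65.2 and 44.4 to 0.867 and 1.44 CPM, and Casp4, a sensor of cytosolic endotoxin, rose from 2.12 and 1.48 to 56.4 and 41.4 CPM. Adjusted p in edgeR spanned 1.30e-07 to 0.0016.

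Transcription factor families were split by member. ETS, IRF, RUNX and GATA factors had 10 rises and 16 falls among 31 tested, with a median log2 of -0.65. Ets1, the called member of highest RPKM, fell from 2460.2 and 2485 to 588 and 471 CPM (log2 -2.22 ± 0.21) and Irf1 from 340.0 and 344 to 43 and 35.9 CPM (-3.11 ± 0.17), whereas Irf4, induced through the T cell receptor, rose from 15.2 and 11.9 to 770.3 and 597 CPM (5.65 ± 0.24), Runx2 from 1.33 and 0.775 to 57.2 and 42.4 CPM (5.53 ± 0.29) and Etv4 from 0.212 and 0 to 7.15 and 7.05 CPM. BTB zinc finger and Ikaros factors had 9 rises and 22 falls among 47. Ikzf1 (Ikaros) fell from 1105 and 1045 to 390.4 and 357 CPM (-1.52 ± 0.18) and Ikzf3 (Aiolos) from 159 and 89.98 to 9.47 and 4.47 CPM (-4.11 ± 0.55), and Zbtb32, a repressor made by activated lymphocytes, was 3292-fold (interval 1126 to 15964) higher at 314 and 265 CPM. Krüppel-like factors had 6 rises and 8 falls among 18: Klf2 (from 333 and 310.2 to 1.46 and 1.21 CPM) and Klf3 (from 280.4 and 225 to 7.7 and 11.7 CPM), known to hold T cells at rest, fell, and Klf4 (from 1.49 and 1.34 to 25 and 21.2 CPM) and Klf8 (from 0.902 and 0.845 to 14.9 and 12.1 CPM) rose. Nuclear receptors had 13 rises and 7 falls among 26 with a median of 0.57. Nr4a2 rose from 0.849 and 1.41 to 116 and 103 CPM (6.63 ± 0.25) and Nr4a1, of the same immediate-early family, from 88.8 and 97.7 to 387 and 322 CPM (1.93 ± 0.17), and the glucocorticoid receptor Nr3c1 fell from 140.3 and 121 to 33.2 and 28.3 CPM (-2.08 ± 0.17). Of the forkhead and SOX factors, 10 of 23 rose and 9 fell. Foxf1 (8.53 and 10.3 CPM, at least 104-fold higher) and Foxf2 (9.05 and 7.73 CPM, at least 92.4-fold higher) had no naive read, Sox5 rose from 0.106 and 0.141 to 42.2 and 44.3 CPM, Foxo1 fell from 424 and 378 to 211 and 185 CPM and Foxp3, the factor of regulatory T cells, fell from 7.64 and 5.84 to 0.104 and 0.0758 CPM. These calls had adjusted p from 1.14e-07 to 0.00638 in edgeR.

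Of 22 tested clock genes 8 rose and 6 fell. Bhlhe40, a repressor of clock genes that T cells need for cytokine production, rose from 0.955 and 1.62 to 1419 and 1202 CPM (log2 10.02 ± 0.33), while Dbp, an output gene of the clock, fell from 30.6 and 31.3 to 1.73 and 3.79 CPM (-3.54 ± 0.37), Nr1d2 from 29.6 and 34 to 8.05 and 11.1 CPM and Cry2 from 30.1 and 31.4 to 8.81 and 13.2 CPM (Cry2 held only with the gene filter of all 4 libraries). From 1 naive read each, Bhlhe41 rose 140.0-fold (interval 24.8 to 5559.6) to 4.47 and 3.71 CPM and Arntl2 rose 122-fold (interval 21.6 to 4845) to 3.5 and 4.09 CPM. Across these genes the adjusted p of edgeR lay from 1.14e-07 to 3.86e-04.

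Among nuclear lists, chromatin remodellers had the smallest share of rises of all 63, 6 rose and 17 fell of 42, with a median log2 of -0.31 (-0.02 with library totals alone). The Ly6, Ms4a and Art2 list had a smaller share with library totals alone and by the rises held in all 5 fits. Chd3, a subunit of the NuRD complex, fell from 1369.6 and 875 to 84.7 and 149 CPM (log2 -3.27 ± 0.38) and Smarca2 (BRM), an ATPase of the SWI/SNF complex, from 208 and 163 to 47.4 and 50.1 CPM (-1.93 ± 0.17), while Hells, which acts on DNA methylation in dividing cells, rose from 8.07 and 7.89 to 97.2 and 75.8 CPM (3.44 ± 0.19). mRNA decay had 8 rises and 23 falls among 52, with a median log2 of -0.36 (-0.37 without Th17 library 2). Its regulators of immune mRNAs named here were picked by size of change or RPKM, and others are not given. The tristetraprolin family members Zfp36 (from 299.7 and 291 to 50.3 and 41.8 CPM) and Zfp36l2 (from 383 and 655 to 107 and 87.1 CPM) fell, and the regnase family members Zc3h12a (from 29.1 and 23.8 to 83.7 and 65.6 CPM) and Zc3h12d (from 63.1 and 52.7 to 298 and 345 CPM) rose, and Zc3h12c rose 693-fold (interval 124 to 27396) to 22.2 and 18.2 CPM. RNA modification enzymes had 14 rises and 25 falls among 73 and a median of -0.17 that turned to 0.13 with library totals alone: Mettl17 fell from 73.2 and 68.3 to 18.1 and 15.5 CPM and the pseudouridine synthase Pus10 rose from 21.2 and 18 to 53.8 and 46.3 CPM. RNA polymerase subunits and Mediator had 16 rises and 12 falls among 61, and Med12l rose from 1.49 and 0.845 to 15.3 and 11.6 CPM while Cdk19, a Mediator kinase, fell from 115 and 106 to 27 and 30.4 CPM. DNA repair had 19 rises and 21 falls among 73 (23 and 14 without Th17 library 2), and its median of -0.13 turned to 0.17 with library totals alone. The named rises were those of homologous recombination, Rad54l (from 1.01 and 0.704 to 37 and 31.5 CPM) and Rad54b (from 0.265 and 0.352 to 12.1 and 9.93 CPM), and the named falls were Parp8 (from 55.9 and 59.6 to 19.8 and 19.2 CPM), Msh3 of mismatch repair (from 49.9 and 48.9 to 21.6 and 20.00 CPM) and Ercc2 of excision repair (from 91.1 and 96.2 to 43.2 and 39.7 CPM). By edgeR, adjusted p of the genes named ran from 5.91e-07 to 9.39e-04.

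Of the 70 tested tubulins, kinesins and dyneins 42 rose and 5 fell, with a median log2 of 1.0, and 42 and 6 without Th17 library 2. Tubb6, a β-tubulin, rose from 0.0531 and 0.211 to 159 and 166 CPM (log2 10.30 ± 0.33), Tuba1b, the called member of highest RPKM, from 181 and 226 to 408 and 405 CPM (1.0 ± 0.17), and the neuronal Kif1a rose from no naive read to 1.7 and 3.56 CPM, at least 29-fold higher. Stmn4, likewise neuronal, rose from no naive read to 3.85 and 2.8 CPM, at least 36.7-fold higher. Beside Kif21b, the fallen members included Kif1b (from 282 and 153 to 75.3 and 91.7 CPM, held only with the gene filter of all 4 libraries) and Kif13b (from 45.3 and 30.9 to 16.9 and 17.6 CPM). Myosins and tropomyosins had 16 rises and 4 falls among 34 and a median of 1.58 (0.95 without Th17 library 2). Myh10, a nonmuscle myosin heavy chain, rose from 1.06 and 0.352 to 99.1 and 117 CPM (7.17 ± 0.35), the filopodial Myo10 from 51.2 and 31.8 to 250.5 and 246 CPM (2.58 ± 0.24) and Tpm4 from 175 and 207 to 544 and 472 CPM (1.42 ± 0.18). The actin filament machinery went otherwise, with 13 rises and 23 falls among 61 (12 and 17 without Th17 library 2) and a median of -0.25 that turned to 0.05 with library totals alone: Was, the Wiskott-Aldrich protein, fell from 234 and 265 to 87.5 and 73.9 CPM (-1.63 ± 0.17), and the formin Diaph3 rose from 2.07 and 1.9 to 65.6 and 55.1 CPM (4.92 ± 0.20). Of 10 septins 4 rose and 3 fell, Sept1 from 933 and 953 to 206 and 175 CPM. T cells build no primary cilium. Of the cilium genes, 25 rose and 10 fell among 53 tested. The share risen, 47.2%, was not above the 51.6% of the lowest bin by mean RPKM. Summed over the whole list, levels were 922 and 781 CPM in the naive and 654 and 659 CPM in the Th17 libraries. Bbs5 of the BBSome coat rose 277-fold (interval 49.4 to 10964) to 8.78 and 7.5 CPM and Ift43 of intraflagellar transport rose 191-fold (interval 34 to 7579) to 5.24 and 6.97 CPM, and Ift80, the called member of highest RPKM, fell from 198 and 180.0 to 37.2 and 37.7 CPM (-2.33 ± 0.16). For the calls named here edgeR gave adjusted p from 1.14e-07 to 0.0155.

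Glycan and trafficking enzymes had both rises and falls. Of 59 glycosyltransferases that finish sugar chains 21 rose and 18 fell. Galnt3, which starts O-linked chains, had no naive read and 71.3 and 63 CPM, at least 739.7-fold higher, and Galnt14 likewise 10.48 and 11.7 CPM, at least 122-fold higher, while Galnt10 of the same family fell from 377 and 356 to 30.5 and 34 CPM (log2 -3.51 ± 0.17), as did B4galnt1, which makes gangliosides, from 872 and 845 to 155 and 139 CPM (-2.55 ± 0.18). Of 27 proteoglycan genes 10 rose and 9 fell: the sulfotransferases Chst2 (from 0.371 and 0.282 to 16.1 and 21 CPM) and Chst11 (from 1.17 and 0.986 to 43 and 33.5 CPM) and the sulfatase Sulf2 (from 0.371 and 0.493 to 21.9 and 31.5 CPM) rose, and Xylt2, which starts the chains, fell from 128 and 124 to 26.2 and 32.7 CPM. Endosome coats, SNAREs and sorting proteins had 37 rises and 48 falls among 141, which turned to 56 and 31 with library totals alone, where the median of -0.14 became 0.15. Stx11, the syntaxin of lymphocyte granule release, rose from 2.92 and 1.34 to 227 and 217 CPM (6.66 ± 0.33). Of 18 V-ATPase subunits 5 rose and 3 fell, Atp6v0a1 from 3.4 and 3.24 to 44.8 and 49.8 CPM and Atp6v0a2 from 185 and 162 to 88.8 and 73.2 CPM being forms of one subunit. Adaptors of ubiquitin ligases had 34 rises and 47 falls among 124 and a median of -0.13 (0.17 with library totals alone), with Asb2 risen from 0.159 and 0.704 to 82.6 and 64.6 CPM and Klhl6 fallen from 308 and 305 to 111 and 120.1 CPM. Ubiquitin-conjugating enzymes and deubiquitinases had 23 rises and 22 falls among 84 (22 and 15 without Th17 library 2), and Uchl1, a deubiquitinase best known in neurons, was 607-fold (interval 109 to 24010.2) higher at 18.7 and 17.7 CPM. TRIM and MARCH ligases had 16 rises and 14 falls among 49, with the falls of Trim12a (from 209.6 and 161 to 28.1 and 25 CPM) and Trim5 (from 31.8 and 27 to 3.64 and 4.62 CPM), relatives in 1 cluster of near-identical genes whose reads are uncertain. Adjusted p in edgeR spanned 1.97e-07 to 4.40e-04.

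In metabolism outside glycolysis, the metallothioneins had the largest rises named in the list of metal handling. Iron, zinc and copper genes had 19 rises and 8 falls among 42 tested. The metallothioneins Mt1 and Mt2, which bind zinc and copper, rose from 5 and 2 naive reads in Mt1 and 1 and 0 in Mt2 to 156 and 192 CPM and 114 and 142 CPM, with a log2 of 9.64 ± 0.30 for Mt1 and a ratio of 4052-fold (interval 727 to 160091) for Mt2. The zinc importer Slc39a3 fell from 56.1 and 52.2 to 18.9 and 19.6 CPM (-1.49 ± 0.15). Heme genes had 7 rises and 6 falls of 19: Hmox1, which breaks heme down, rose from 1.17 and 0.493 to 16 and 16.7 CPM, Cpox, a late enzyme of its synthesis, from 18 and 20.1 to 182 and 130.3 CPM, and Bach1, the heme-sensing repressor, fell from 42.5 and 35.8 to 3.99 and 5.61 CPM (-3.05 ± 0.23). Fatty acid oxidation had 16 rises and 6 falls among 28 (13 and 6 without Th17 library 2), yet the risen members named by size are acyl-CoA synthetases and a thioesterase: Acsl6 from no read to 72.1 and 61.9 CPM, at least 738-fold higher, Acsl4 from 61.2 and 56.6 to 707 and 515 CPM (3.37 ± 0.21) and Acot7 from 7.0 and 9.36 to 163 and 153 CPM (4.28 ± 0.20). Cpt1a, the carnitine transferase that admits fatty acids to mitochondria, fell from 156 and 123 to 37.2 and 47.2 CPM (-1.73 ± 0.19). Sphingolipid genes had 8 rises and 15 falls among 33 and a median of -0.20 (0.10 with library totals alone). Sphk1, which makes sphingosine-1-phosphate, went from no read to 5.79 and 5.91 CPM, at least 64.5-fold higher, Galc rose from 5.04 and 4.51 to 63.4 and 56.4 CPM and Ugcg, the glucosylceramide synthase, fell from 283 and 289 to 76.9 and 63.6 CPM. These calls had adjusted p from 1.14e-07 to 6.66e-05 in edgeR.

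Carriers and oxidizing enzymes followed. Of 56 nucleotide, vitamin and organic ion carriers 23 rose and 19 fell, the median of 0.43 turning to -0.15 without Th17 library 2. Slc17a6, a vesicular glutamate carrier of neurons, had no naive read and 82.3 and 56.3 CPM, at least 763-fold higher. Slc15a3, a histidine and peptide carrier of lysosomes, rose from 0.159 and 0.211 to 297 and 239 CPM (log2 10.47 ± 0.30), and Slc44a2, a choline carrier and the called member of highest RPKM, fell from 715 and 698 to 210.2 and 199 CPM (-1.79 ± 0.17). Of 60 cytochrome P450, aldehyde and reductase genes 26 rose and 13 fell (28 and 15 without Th17 library 2). Akr1b8 (39.2 and 36.9 CPM, at least 419-fold higher), Aldh1l2, a mitochondrial folate enzyme, (16.7 and 9.93 CPM, at least 146-fold higher) and Cyp1b1, a target of the aryl hydrocarbon receptor, (7.53 and 8.49 CPM, at least 88.2-fold higher) had no naive read, and Cyp51 of sterol synthesis rose from 35 and 38.6 to 227 and 223 CPM (2.61 ± 0.16). ABC transporters had 11 rises and 10 falls among 29, with the cholesterol exporters Abcg1 (from 157 and 155 to 14.9 and 16.1 CPM) and Abca7 (from 415 and 286 to 84.1 and 81.2 CPM) among the fallen. Of 14 eicosanoid genes 5 rose and 5 fell: Ptgs2 (COX-2) had no naive read and 8.53 and 2.65 CPM, at least 61.6-fold higher, Th17 library 1 being the higher, and Ephx1 fell from 125 and 164 to 27.8 and 25.9 CPM. Of 31 peroxisomal genes 8 rose and 9 fell, and Abcd3, a carrier of fatty acids into peroxisomes, rose from 26.7 and 23.2 to 101 and 124 CPM. Across these genes the adjusted p of edgeR lay from 1.14e-07 to 0.00147.

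Some families held members with large changes in opposite directions. Within a stem, a pair was noted where one member rose and another fell by a log2 of at least 3 in all 5 fits, each with at least 10 CPM in its higher group. Of 1716 stems with 2 or more tested genes 38 held such a pair, where 687 genes passed for a rise and 214 for a fall. Ramp3 and Ramp1, partners that set the ligand of the calcitonin-like receptor, went opposite ways: Ramp3 rose from 11.1 and 17.2 to 294 and 224 CPM (log2 4.20 ± 0.27) and Ramp1 fell from 65.1 and 77.2 to 3.82 and 7.5 CPM (-3.70 ± 0.35). Of the α integrins, Itga3, a laminin receptor, rose from 2.81 and 3.8 to 512 and 523 CPM (7.30 ± 0.24), and Itga4, with which T cells bind VCAM-1 in inflamed vessels, fell from 438 and 273 to 8.15 and 9.4 CPM (-5.35 ± 0.29). The β chains Itgb8, which activates TGF-β, (from 0.212 and 0.0704 to 13.5 and 23.9 CPM) and Itgb7, the gut-homing partner of Itga4, (from 1120.2 and 1265 to 84.7 and 92.2 CPM) went the same 2 ways. Tbx21 (T-bet) rose from 0.902 and 1.06 to 23 and 21.4 CPM and Tbx6 fell from 12.4 and 13.7 to 1.53 and 1.21 CPM. Trib1 rose from 3.34 and 2.04 to 26.6 and 20.6 CPM while Trib2 fell from 377 and 377 to 14.1 and 25.8 CPM, both pseudokinases. The vesicle ATPases Ehd2 (from 0.0531 and 0.141 to 54.5 and 42.9 CPM) and Ehd3 (from 169 and 189 to 18.5 and 21.6 CPM), the synaptotagmin-like Sytl3 (from 1.33 and 1.48 to 33.8 and 23.6 CPM) and Sytl2 (from 32.4 and 33.7 to 1.94 and 2.73 CPM), and the SLAM receptors Slamf7 (from 4.46 and 3.24 to 73 and 51.9 CPM) and Slamf6 (from 215 and 186 to 12.3 and 13.9 CPM) were further pairs, the first rising and the second falling in each. Some pairs only share letters, such as Il17a with Il6st and Cd5l with Cd7. By edgeR, adjusted p of the genes named ran from 1.14e-07 to 3.88e-04.

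**Figure D5:**
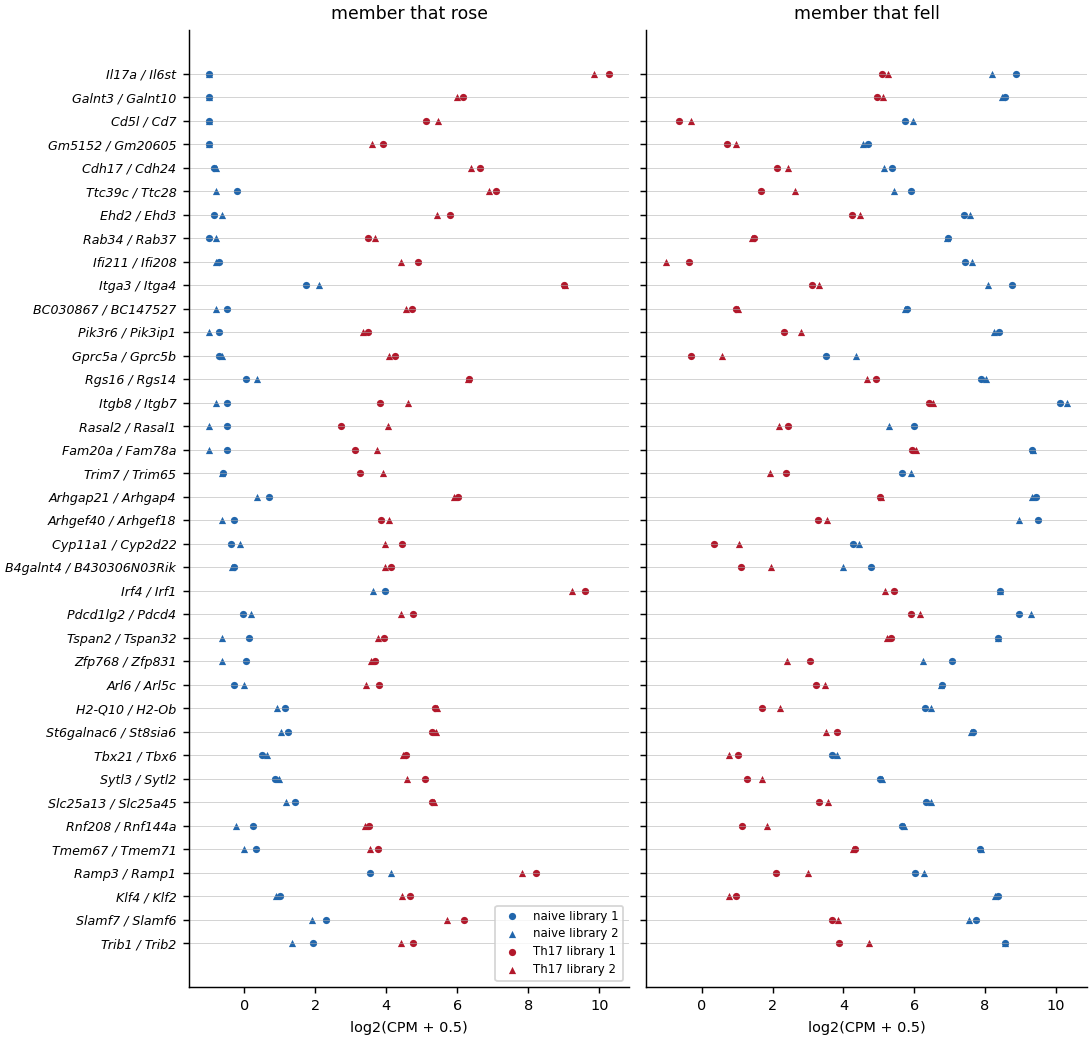
Levels of the risen (left) and the fallen (right) member of each of the 38 name stems with such a pair, as log2(CPM + 0.5) in each of the 4 libraries. Blue points are naive and red points Th17 libraries, circles library 1 and triangles library 2: for every pair the colours change sides between the panels.

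Some changed genes were neighbours on the chromosome. Runs of at least 5 neighbouring tested genes called the same way, each by a log2 of at least 1, numbered 19 for rises with 111 genes and 10 for falls with 54 genes, where 24.8% of tested genes were called higher and 18% lower by that size. Coordinates are those of GENCODE M21 on GRCm38 (mm10). On chromosome 13 (chr13:32842092-34002794) the serpins Serpinb1a, Serpinb6b, Serpinb9, Serpinb9b, Serpinb1b and Serpinb6a rose with Nqo2, all 7 in all 5 fits, with a median log2 of 3.97. On chromosome 1 (chr1:173468485-173698395) the DNA-sensing family genes Ifi206, Ifi214, Ifi213, Ifi209 and Ifi208 fell, all 5 in all 5 fits, with a median of -6.16. On chromosome 19 (chr19:34492318-34640743) 5 Ifit genes fell beside Lipa, and on chromosome 5 (chr5:104813169-105293698) the guanylate-binding proteins Gbp4, Gbp6, Gbp8, Gbp9 and Gbp10 fell with Zfp951 and Abcg3, 6 of 7 in all 5 fits. Reads of the Serpinb, Ifi, Ifit and Gbp copies can be shared between near-identical genes, and so can those of a run of 8 genes on chromosome 14, of which 7 are Gm models.

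Other runs mixed genes of different families. At chr1:16641725-20820312 Il17a and Il17f rose with Eloc, Tmem70, Ly96 and the replication factor Mcm3, 5 of 6 in all 5 fits. At chr1:130865669-131138340 the cytokines Il10 and Il24 rose with Fcmr, Mapkapk2 and Dyrk3, all 5 in all 5 fits, with a median log2 of 6.68. At chr16:58670292-59639391 Gpr15, a gut-homing receptor, rose within a run of 7 with Cpox, Cldnd1, Olfr175, Riox2, Crybg3 and Arl6, 6 of 7 in all 5 fits. Olfr175, an odorant receptor gene, had no naive read and 8.64 and 4.7 CPM, at least 73.5-fold higher, with an edgeR adjusted p of 5.90e-05. At chr10:75771230-75895941 the glutathione transferases Gstt1, Gstt2, Gstt3 and Gstt4 rose between Ddt, Mif and Derl3, 6 of 7 in all 5 fits. The counts of genes in runs changed by more than 1.5 times with the filter and with the scaling, as given in the closing section. Of the chromosomes, 17, which carries the H2 complex, had the largest share of falls and the smallest share of rises among those with 100 or more tested genes, 39.7% and 26% of its 612 tested genes, with a median of -0.24. By exon length, the shortest of 5 equal bins had a median of 0.25 with 39.1% risen, and the longest a median of -0.03 with 30.7% risen.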

How the data were processed

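Ribosome-depleted total RNA had been sequenced on a HiSeq after a KAPA Hyper Prep library, per the labels' protocols. Tools named by the submitters' processing notes are featureCounts, STAR (2.6.1a) and DESeq2 (1.18.1), with mm10 as the build. The authors' deposited table gives raw read counts per gene for 2 naive and 2 Th17 libraries, 11768994 to 26624436 reads. Its normalized columns, a signal of counts over size factors, its log2 fold changes, test score and p-values are the authors' deposited values and were not used. Whether counting used strand is not given in the sources used here, so reads of overlapping and antisense genes cannot be told apart.

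Of 16308 genes 16295 matched GENCODE M21 by identifier and 16270 of those are protein coding. Symbols of 25 genes that had turned into dates were restored. The counts were filtered with filterByExpr (11989 genes), scaled by TMM and fitted with edgeR 4.0.16 in R 4.3.3 (robust quasi-likelihood test, limma 3.58.1, Benjamini-Hochberg). The fit was also run on simulated data with few changed genes and no library that stood apart. That run is no check of the calls here. CPM use effective library sizes, RPKM the merged exon length, and plots add 0.5 CPM. Alternatives were DESeq2 1.42.0, other scaling and filters, a replicate block and leaving out each library, and, chosen after seeing the data, filtering anew without each library, removing symbols of other families from lists, and 7 marker lists of other tissues. Counting intervals cover 95% and counting error only. Promoters came from RefSeq on GRCm38.p6.

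The members and lists were chosen with earlier results of these data known. Named genes are, in each list, up to 3 of the largest rises and of the largest falls held in all 5 fits and the called member of highest mean RPKM, of which those that also held with the filter applied anew were preferred after values were seen. They are also the 10 largest gains and losses of mean CPM, members of the 10 highest and lowest stems, opposite pairs and runs of neighbours. Genes of Th17 library 2 and of Th17 library 1 alone, and promoter matches, were chosen after their values were seen. Lists overlap, and a gene in several counts in each of them but once in the totals over all lists. Some genes and 1 list are not reported here.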

Additional observations from a re-analysis of the deposited data

Results flagged for a closer look

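Signal outside the tested genes was found in Th17 library 2. There 764 genes that did not pass the filter on low counts had at least 1 CPM and at least 10 times the level of every other library, against 0 such genes in each naive library. They are part of the 846 described in the report, with Kap, Umod and Kdr among the genes of the kidney and of vessels. How they came to be in that library was not tested.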

How the results depend on the processing

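The counts of genes called higher (4116) and lower (3684) stayed within 1.5 times with DESeq2's size factors, library totals alone, DESeq2, no filter, a mean of at least 10 normalized counts and each library left out on the same genes. They did not in 2 settings with the filter on low counts applied anew: leaving out 1 library then gave 2380 to 4847 genes higher (2380 and 2436 without naive library 2 or 1), and 2115 higher and 2237 lower held throughout. By the same change the list members called higher (960) ranged from 564 to 1236 (588 without naive library 1). Fits without a naive library leave the lone naive library assumed to vary like the Th17 pair.

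Genes in runs of neighbours called higher (111) numbered 272 with library totals alone, 27 with no filter, 60 with a mean of at least 10 normalized counts, 63 to 136 with 1 library left out and 16 to 250 with the filter also applied anew. Those in runs called lower (54) numbered 23 with library totals alone, 26 with no filter, 34 to 79 with 1 library left out and 21 to 90 with the filter also applied anew. The cause was not tested. Of 519 named genes, 426 were called the same way in each of the 14 settings that tested them. A setting whose filter removed a gene was not counted for that gene. Most lost calls came without naive library 1 or 2 when the filter was applied anew. No named gene changed direction, which the choice of genes itself favoured. The largest rises and falls of each list and the opposite pairs were chosen among genes that held in all 5 fits. Of the list genes, those that also held with the filter applied anew were preferred. For these genes the settings that left out 1 library were part of the choice and are no separate check.

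With the replicate number as a block, 4094 genes were called higher and 3644 lower. The identifiers in the labels are shared by 1 pair only, naive library 2 and Th17 library 2, so the numbers were not taken as a pairing. What the identifier stands for is not stated. The deviations of same-numbered libraries had r = -0.049 across genes, which cannot decide on a shared source because Th17 library 2 stood apart. The depth of Th17 library 2, 11768994 reads, limits what can be seen of genes with few reads.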
